A study of Homo sapiens with 6 samples.

Results

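miR-221 and miR-222 are a pair of microRNAs made from neighbouring hairpins on the short arm of the X chromosome. Both arms of both hairpins, hsa-miR-221-3p, hsa-miR-221-5p, hsa-miR-222-3p and hsa-miR-222-5p, were taken by name from a table of 2656 mature miRNAs, and all 4 were present in it. They were followed in 3 libraries of azacitidine-resistant and 3 libraries of azacitidine-sensitive K562 cells. K562 is an established line from a chronic myeloid leukaemia with erythroid and myeloid features. Azacitidine is a cytidine analogue that traps DNA methyltransferases. The resistant form came from the same line by months of growth in rising drug concentrations, and both forms share one culture medium with serum and antibiotics. The labels call the libraries biological replicates of each form. They name no separate selections of resistant cells, do not say whether drug was present at harvest, and do not explain the letters NT in every library name. P-values therefore measure the spread between these libraries, and a difference tied to resistance and one that merely arose in the resistant form cannot be told apart.

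A miRNA hairpin is cut into a duplex of a 5p and a 3p strand, and the strand that is kept guides repression of transcripts that pair with its seed, bases 2 to 8. miR-221 and miR-222 are known for repressing KIT, the receptor of stem cell factor, and CDKN1B, the cyclin-dependent kinase inhibitor p27. In human blood progenitors both miRNAs decline as erythroid cells mature, while KIT must later be shut off for maturation to finish. Neither KIT nor CDKN1B transcripts were measured here.

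The mature sequences are shown because the 3p arms share their seed, which the 5p arm does not. Sequences are from RefSeq (GRCh38.p14), 5′ to 3′, with the seed in capitals. An entry for miR-221-5p was not used here.
miR-221-3p: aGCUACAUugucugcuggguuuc
miR-222-3p: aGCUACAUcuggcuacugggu
miR-222-5p: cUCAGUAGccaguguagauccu
Of 2370 mature human miRNAs in the RefSeq table, miR-221-3p and miR-222-3p were the 2 with this seed. The 3p arms were identical over their first 8 bases and 6 edits apart over their whole length. No other mature miRNA in that table was closer to either of them, though miR-1263 was as close to miR-222-3p, at 6 edits. How reads too short to tell them apart were counted is not given.

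The hairpins are shown to place the arms. Both are on the minus strand, MIR221 at chrX:45746157-45746266 and MIR222 at chrX:45747015-45747124, with 748 bases between them. Capitals mark the 3p arm in MIR221, and the 5p and then the 3p arm in MIR222.
MIR221: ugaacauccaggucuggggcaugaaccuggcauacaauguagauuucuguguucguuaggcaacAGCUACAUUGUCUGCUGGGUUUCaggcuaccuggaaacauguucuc
MIR222: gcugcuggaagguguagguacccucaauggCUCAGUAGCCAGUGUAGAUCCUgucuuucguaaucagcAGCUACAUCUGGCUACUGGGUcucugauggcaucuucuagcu
In GENCODE 29 both lie inside the long non-coding host gene MIR222HG (chrX:45745211-45770274, minus strand). Of its 2 basic transcripts, 1 spans the hairpins, and neither holds them in an exon.

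The sites that the shared seed can pair with are shown for the pair's best known targets. The 3′ UTRs of KIT and CDKN1B, taken from the transcript with the longest one, were searched on the transcript strand for ATGTAGC, which matches bases 2 to 8, and for TGTAGCA, which matches bases 2 to 7 with an A opposite base 1. These overlap in the 8-base match ATGTAGCA. Each UTR held 2 matches, all of 8 bases, marked in capitals below.
KIT first site, chr4:54739576-54739605, plus strand: tttggattcttATGTAGCAggaaataaagt
KIT second site, chr4:54740505-54740534, plus strand: taaatattgaaATGTAGCAataatgtcttt
CDKN1B first site, chr12:12721217-12721246, plus strand: aaaagcgttggATGTAGCAttatgcaatta
CDKN1B second site, chr12:12721290-12721319, plus strand: ttttaccttttATGTAGCAcataaactttg
For windows of the length of the KIT UTR, 2158 bases, 20.3% of 5345 other UTRs held either 7-base match and 0.150% held 2 or more of the 8-base match. At the length of the CDKN1B UTR, 1344 bases, the shares were 12.7% and 0.0484% of 8267 UTRs. A match is a description of the letters and does not show that a site is used in these cells.

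Library totals were 3291500 to 10644739 counts in resistant and 5660055 to 12563945 counts in sensitive cells, and 768 miRNAs passed the filter on low counts. Levels are given as CPM, the count relative to the library size, with library sizes scaled by trimmed mean of M values (TMM) factors. Resistant replicate 3 stood apart. Across tested miRNAs its log2 CPM correlated with resistant replicates 1 and 2 at Pearson r = 0.882 and 0.871, against 0.996 between those replicates. In that library miR-92a-3p held 58.6% of the counts, against 20.2% and 17.5% in the other resistant replicates. The main results are therefore given with and without it, and others with all libraries only. The labels give the cell type as myeloblast, and markers of both the myeloid and the erythroid line were present. The 6 blood markers (miR-142-3p, miR-142-5p, miR-223-3p, miR-144-3p, miR-451a and miR-486-5p) were counted in each library and together held 2.55% to 5.01% of the counts in resistant and 1.66% to 1.90% in sensitive libraries. Of these, miR-486-5p was at 28676 ± 30042 CPM in resistant and 5679 ± 813 CPM in sensitive cells (SD, n = 3 each). With all libraries the other 5 markers had negative log2 fold changes, among them miR-223-3p (-1.52) and miR-142-3p (-0.75). The median of all 6 was -0.76 and 0 of 6 passed, where 4.17% of all tested miRNAs did. The median of these 6 was -0.25 without resistant replicate 3, beside 0.04 over all tested. In that fit miR-223-3p was called lower (-0.99, edgeR adjusted p = 0.00733), where 14.4% of all tested miRNAs were. There miR-486-5p was called higher (1.05, edgeR adjusted p = 0.00218), where 13.7% were. The values of miR-142-3p (-0.17) and miR-144-3p (0.09) did not pass. Of 9 markers of other cells, miR-133a-3p, miR-205-5p and miR-124-3p had at most 2 counts in any library. All 9 together held 0.710% to 3.16% in resistant and 3.24% to 4.60% in sensitive libraries, most of it miR-126-3p, a miRNA of endothelium that blood stem cells also make. Of the 6 tested, miR-145-5p was called lower in resistant cells (log2 fold change -1.76, edgeR adjusted p = 0.0467), where 2.08% of all tested miRNAs were. miR-143-3p went the other way and did not pass (2.19, edgeR adjusted p = 0.136). Without resistant replicate 3 miR-143-3p was called higher (2.75, edgeR adjusted p = 9.62e-05), and miR-145-5p (-1.63) and miR-126-3p (-0.82) were called lower. The part of these other cells' markers in the results below was not tested.

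Both 3p arms were scarce in K562 cells and less abundant in the resistant form, by 3.11-fold and 2.85-fold, and neither difference passed the test with all 6 libraries. miR-221-3p, the more abundant arm, had 61, 101 and 24 counts in resistant replicates 1 to 3, against 330, 277 and 86 counts in sensitive replicates 1 to 3. As CPM these were 6.21, 7.62 and 9.43 in resistant and 27.5, 28.3 and 15.9 in sensitive libraries. Each resistant library was below each sensitive library, and sensitive replicate 3 lay well under the other sensitive libraries. The group levels were 7.75 ± 1.61 CPM in resistant and 23.9 ± 6.92 CPM in sensitive cells (SD, n = 3 each). The log2 fold change, resistant over sensitive, was -1.64 (SE 0.43, 3.11-fold lower, edgeR adjusted p = 0.0777, unadjusted p = 0.00536). In RNA from whole cultures, fewer cells with the miRNA and less of it per cell cannot be told apart.

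miR-222-3p had 25, 32 and 12 counts in resistant replicates 1 to 3, against 154, 84 and 27 counts in sensitive replicates 1 to 3. The levels were 2.54, 2.41 and 4.71 CPM in resistant and 12.8, 8.58 and 5.00 CPM in sensitive libraries. The groups did not overlap, but resistant replicate 3 and sensitive replicate 3 were nearly equal. Without TMM factors, on the library total alone, these libraries had 3.65 CPM (exact 95% binomial interval 1.88 to 6.37) and 4.77 CPM (3.14 to 6.94), so counting error alone covers their gap. Such intervals cover counting error only, since the reads carry no molecular identifiers. Group levels were 3.22 ± 1.29 CPM in resistant and 8.80 ± 3.92 CPM in sensitive cells (SD, n = 3 each), with a log2 fold change of -1.51 (SE 0.53, 2.85-fold lower, edgeR adjusted p = 0.137, unadjusted p = 0.0219).

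**Figure D1:**
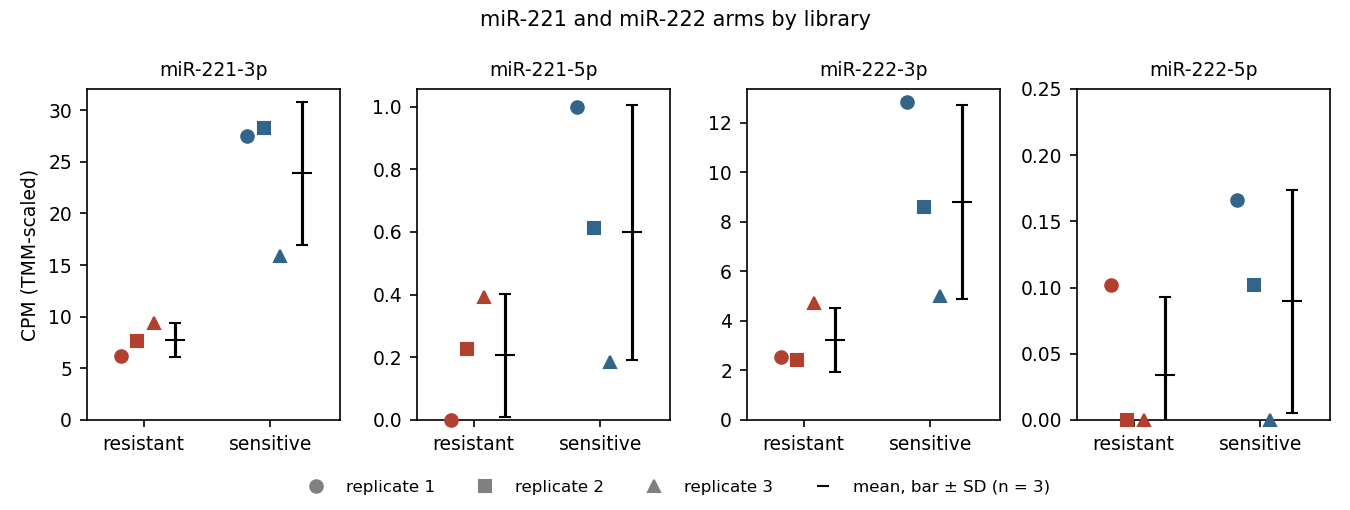
Level of each arm in CPM on TMM-scaled library sizes (vertical axis, its own scale in each panel), with resistant libraries left and sensitive libraries right, a point for each library and the mean with SD beside them. miR-221-3p sits between 6.21 and 9.43 CPM in resistant and between 15.9 and 28.3 CPM in sensitive libraries, while both 5p arms are at or under 1 CPM and overlap between the groups.

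Without resistant replicate 3 both 3p arms fell. miR-221-3p then had a log2 fold change of -1.73 (SE 0.32, 3.33-fold lower, edgeR adjusted p = 0.00206), and miR-222-3p one of -1.80 (SE 0.41, 3.48-fold lower, edgeR adjusted p = 0.00657). In this fit 28.1% of 822 tested miRNAs were called, 14.4% lower and 13.7% higher, so a call was common. Leaving out any of the other 5 libraries kept both log2 fold changes negative, from -1.78 to -1.34 for miR-221-3p and from -1.70 to -0.96 for miR-222-3p. Neither arm passed in those fits (edgeR adjusted p = 0.150 to 0.425 over those 10 values), but few miRNAs did. Called were 7 of 816 without resistant replicate 1 and 26 of 785 without resistant replicate 2. Without sensitive replicates 1 to 3 in turn, 5 of 801, 4 of 800 and 5 of 833 were called. With all libraries, DESeq2 called miR-221-3p lower (log2 fold change -1.52, DESeq2 adjusted p = 0.0141) but not miR-222-3p (adjusted p = 0.0805), and limma-voom with library quality weights called both. DESeq2 called 19.4% and the weighted fit 42.1% of the 768 miRNAs.

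**Figure D2:**
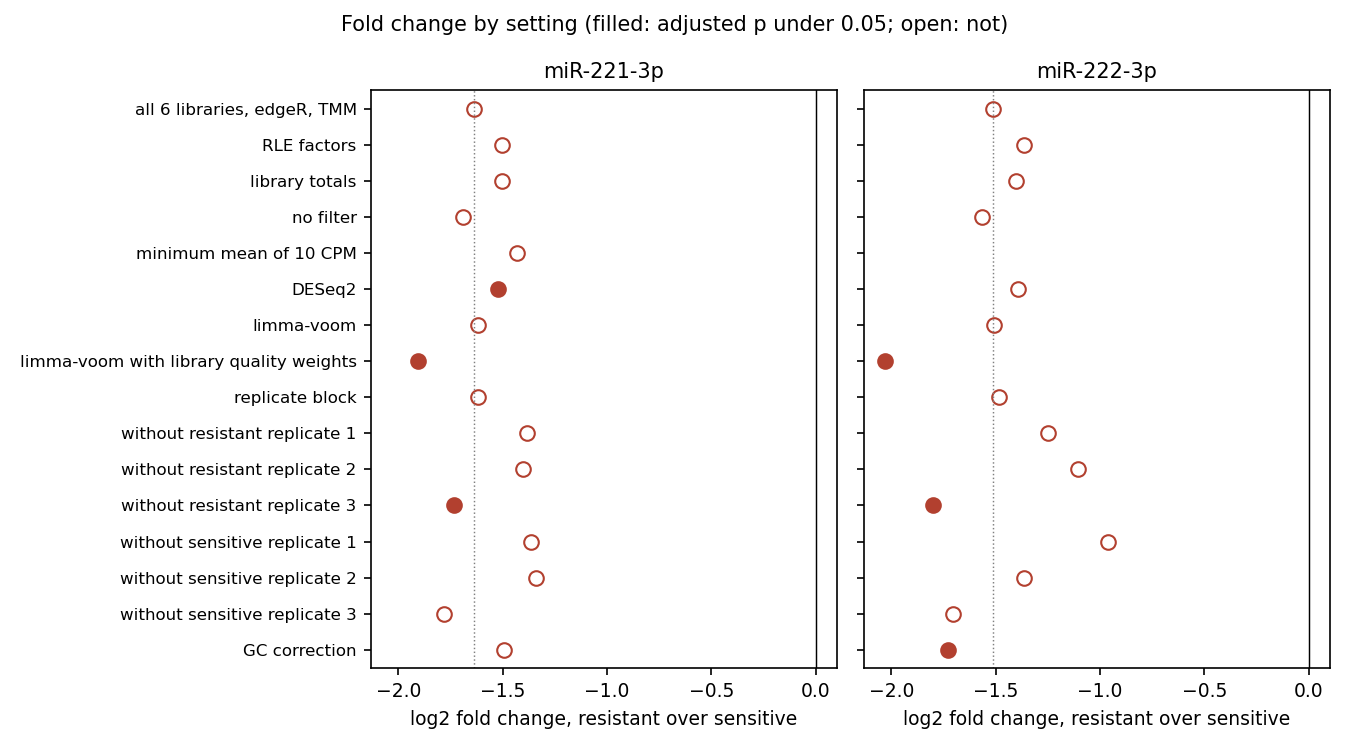
Log2 fold change of miR-221-3p (left panel) and miR-222-3p (right panel), resistant over sensitive, on the horizontal axis under each setting named on the vertical axis; filled points have an adjusted p under 0.05 and the dotted line is the value with all 6 libraries. Every value is below 0, the filled points include the fit without resistant replicate 3 in both panels, and miR-222-3p has no point at a minimum mean of 10 CPM, which it does not reach.

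With all libraries 4.17% of the 768 tested miRNAs were called, 16 higher (2.08%) and 16 lower (2.08%). CPM of the groups did not overlap, with the resistant group lower, for 22.9% of the 768, so the lack of overlap of both 3p arms is shared with many miRNAs. miR-221-3p ranked 53 and miR-222-3p ranked 123 of 768 by p-value. A log2 fold change as low as theirs or lower was found for 6.12% and 7.81% of the tested miRNAs, against a median of -0.11 over all. Of the 355 tested miRNAs with a lower mean CPM than miR-221-3p, 15 were called. Their smallest absolute log2 fold change was that of miR-625-5p (-2.00), larger than that of miR-221-3p. Calls were thus made at this depth, but not for a difference as small as those of the 3p arms. With all libraries, log2 fold changes rose with the GC content of the mature sequence across 677 miRNAs with a RefSeq sequence (Spearman's rho 0.565 across miRNAs, which are not independent). Neither this trend nor the correction below was computed without resistant replicate 3, and the part of that library in them was not tested. miR-221-3p had 47.8% GC and miR-222-3p 52.4%, beside a median of 47.8%. After a GC correction that was added with the data already seen, the log2 fold changes were -1.50 (edgeR adjusted p = 0.0538) for miR-221-3p and -1.73 (edgeR adjusted p = 0.0485) for miR-222-3p, so miR-222-3p then passed, with 8.85% of all tested miRNAs called.

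**Figure D3:**
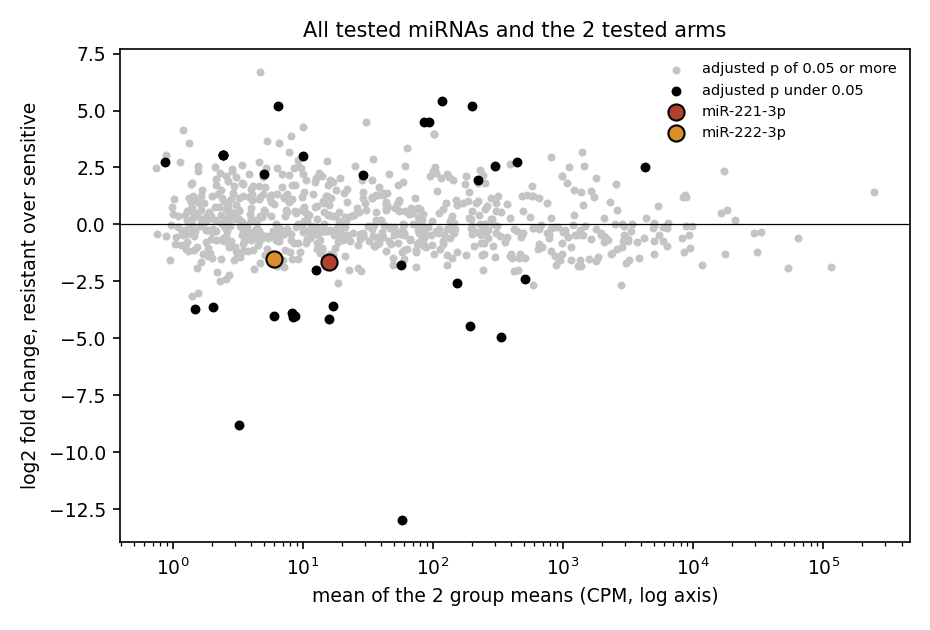
Log2 fold change, resistant over sensitive (vertical axis), against the mean of the group means in CPM (horizontal axis, logarithmic) for the 768 tested miRNAs; black points have an adjusted p under 0.05, grey points do not, and the 2 large coloured points are the 3p arms. miR-221-3p (-1.64) and miR-222-3p (-1.51) lie below the middle of the grey points, and both called and uncalled miRNAs lie further down.

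The 5p arms, the strands usually discarded from these duplexes, were barely counted and could not be tested under the filter on low counts. miR-221-5p had 0, 3 and 1 counts in resistant replicates 1 to 3, against 12, 6 and 1 counts in sensitive replicates 1 to 3. For the library with 0 counts, the exact 95% binomial interval reaches 0.444 CPM of the library total, and a floor of 3 counts is 0.361 CPM. The groups overlapped, since sensitive replicate 3 had no more than resistant replicate 3. Over the groups this was 4 counts of 22242200 in resistant and 19 counts of 28421963 in sensitive cells, a ratio of 0.269 (exact 95% interval 0.0666 to 0.809, counting error only). Without a filter on low counts, its log2 fold change was -1.89 (SE 1.15, edgeR adjusted p = 0.368), in a fit that called 9.34% of 1734 miRNAs. miR-222-5p had 1, 0 and 0 counts in resistant and 2, 1 and 0 counts in sensitive replicates 1 to 3, at or under the floor in both groups, so no fold is given.

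The arm ratio was followed as the share of a hairpin's counts that came from its 3p arm. For miR-221 this was 100%, 97.1% and 96.0% in resistant replicates 1 to 3, against 96.5%, 97.9% and 98.9% in sensitive replicates 1 to 3. The resistant values enclosed the sensitive ones. Over each group the share was 97.9% (exact 95% interval 94.7% to 99.4%, 190 counts) in resistant and 97.3% (95.9% to 98.4%, 712 counts) in sensitive cells. For miR-222 the 3p arm held 98.6% (92.3% to 99.96%, 70 counts) in resistant and 98.9% (96.8% to 99.8%, 268 counts) in sensitive cells. A difference in arm use was not detectable at this depth for either hairpin.

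As a log2 ratio of 3p to 5p counts with a pseudocount of 0.5, the difference between resistant and sensitive libraries was -0.05 for miR-221 (SE 0.86) and -0.93 for miR-222 (SE 0.79). In a limma fit over 723 hairpins without a filter, neither passed (adjusted p = 0.999 for miR-221 and 0.705 for miR-222). These ratios rest on 5p counts of 0 to 12, and single libraries and the pseudocount move them. For miR-221 the difference ran from -0.89 without resistant replicate 1 to 0.57 without resistant replicate 3, with 0.16 without resistant replicate 2, 0.21 without sensitive replicate 3, -0.36 without sensitive replicate 1 and -0.01 without sensitive replicate 2. It was -0.38 with a pseudocount of 1 and -1.06 with one of 5. For miR-222 it ran from -1.48 without resistant replicate 2 to -0.52 without resistant replicate 1, and was -1.15 and -1.37 with those pseudocounts. Among 205 hairpins with both arms tested, 1.46% had a called difference in arm ratio. These were miR-181a, miR-181b and miR-548ae, all with a lower 3p share in resistant cells. Arms were paired by name, and a name can cover several hairpins, so these need not be changes of arm use within a hairpin. A separately named arm, miR-181a-2-3p, was at 43.5 ± 6.47 CPM in resistant and 29.6 ± 5.29 CPM in sensitive cells. It did not pass (log2 fold change 0.55, edgeR adjusted p = 0.365), and the part of different loci was not tested. Arm bias of this size was common. Among 276 hairpins with at least the 338 counts of miR-222, the more abundant arm held a median of 96.6% of the counts, and it was the 3p arm in 48.6% of them. A higher share of the more abundant arm was found in 44.2% of these hairpins than in miR-221, and in 29.3% than in miR-222.

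**Figure D4:**
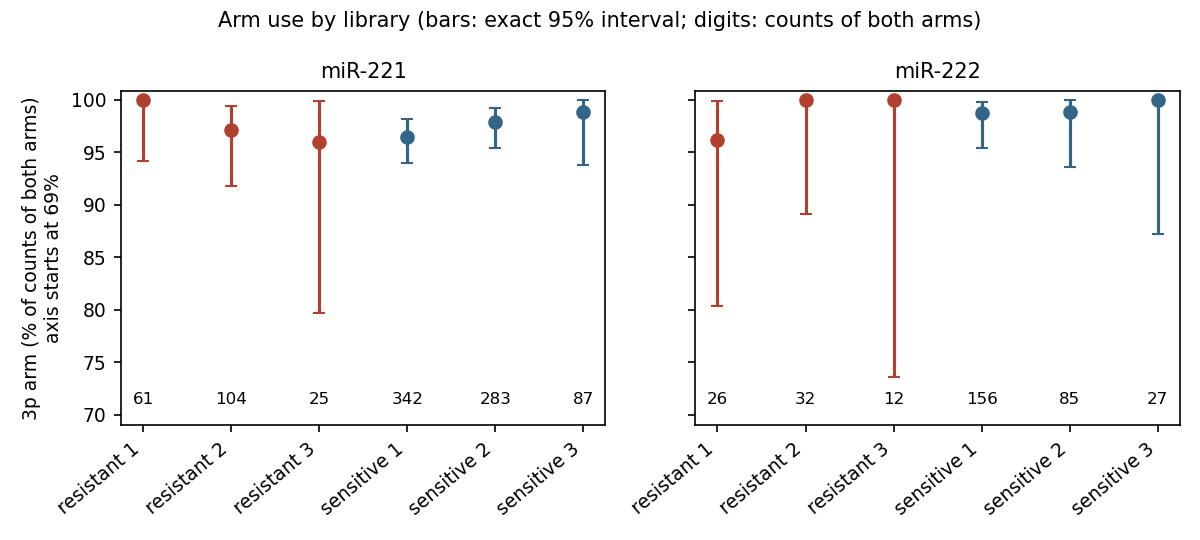
Share of the 3p arm in the counts of both arms (vertical axis, in percent, starting at 69%) for miR-221 and miR-222 in each library, resistant libraries first; bars are exact 95% binomial intervals and the digits are the counts of both arms. The intervals overlap between all libraries within each panel, and they are widest in resistant replicate 3, with 25 and 12 counts.

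The proportion of the 3p arms to each other was followed within libraries. There were 2.44, 3.16 and 2 counts of miR-221-3p for each count of miR-222-3p in resistant replicates 1 to 3, against 2.14, 3.30 and 3.19 in sensitive replicates 1 to 3. The ratio averaged 2.53 ± 0.584 in resistant and 2.88 ± 0.637 in sensitive cells (SD, n = 3 each), and the groups overlapped. The log2 ratio of miR-222-3p to miR-221-3p differed by 0.19 between resistant and sensitive libraries (two-sided exact permutation test p = 0.5, where 3 libraries against 3 cannot give less than 0.1). It was 0.39 without sensitive replicate 1, 0.37 without resistant replicate 2, 0.11 without sensitive replicate 3, 0.08 without sensitive replicate 2 and 0.03 without resistant replicate 3. At these counts neither a change of the proportion nor its lack is shown. On the library total alone, all 4 arms together were at 10.5, 12.8 and 11.2 CPM in resistant replicates 1 to 3, against 39.6, 36.1 and 20.1 in sensitive replicates 1 to 3. Here resistant replicate 3 lay between the other resistant libraries. This sum was 11.5 ± 1.17 CPM in resistant and 32.0 ± 10.4 CPM in sensitive cells (SD, n = 3 each; two-sided exact permutation p = 0.1, the smallest possible).

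Over the 6 libraries the log2 CPM of both 3p arms ran together (Pearson r = 0.943, given as a description). Among 468 other tested miRNAs whose mean reached 10 CPM, those most like miR-221-3p were miR-139-5p (r = 0.975), miR-7976 (r = 0.933) and miR-134-5p (r = 0.930). miR-222-3p was under that level and so not among them, though its r lay above that of miR-7976. Among 469 at that level, those most like miR-222-3p were miR-3667-3p (r = 0.960), miR-628-3p (r = 0.952) and miR-139-5p (r = 0.946). miR-139-5p, the miRNA near to both, had 31.0, 30.9 and 34.2 CPM in resistant replicates 1 to 3, against 158, 131 and 59.2 CPM in sensitive replicates 1 to 3 (log2 fold change -1.86, edgeR adjusted p = 0.0719). As with the 3p arms, sensitive replicate 3 was the lowest of the sensitive libraries. All these profiles share the same 6 libraries, their depth and the difference between the groups.

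Among 5 other miRNAs reported to repress KIT, 4 were tested and 0 passed in either direction, too few members to set against the 4.17% called over all miRNAs. They had a median log2 fold change of 0.03 beside -0.11 over all tested. Without resistant replicate 3 these medians were 0.16 and 0.04. The most abundant, miR-494-3p of the imprinted 14q32 cluster, was at 2891 ± 1385 CPM in resistant and 7192 ± 933 CPM in sensitive cells (SD, n = 3 each; log2 fold change -1.31, edgeR adjusted p = 0.149). Without resistant replicate 3 it was the 1 member that passed, and it fell (log2 fold change -0.91, edgeR adjusted p = 0.00416), in a fit that called 14.4% of all miRNAs lower. miR-193a-3p, known to target KIT in leukaemia, was too scarce to test, with at most 5 counts in any library. Of these 5, every tested member is more abundant than miR-222-3p except miR-34a-5p, at 2.62 ± 0.935 CPM in resistant and 2.06 ± 0.622 CPM in sensitive cells.

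Of 6 other miRNAs reported to repress CDKN1B, 5 were tested, 1 rose and 1 fell, and the median log2 fold change was -0.22. Over all tested miRNAs 2.08% were called in each direction, but 5 members are too few to set against that share. The list was also chosen with earlier results of these data known. miR-196a-5p, made in the HOX clusters, rose to 515 ± 129 CPM in resistant cells, against 87.8 ± 15.5 CPM in sensitive cells (log2 fold change 2.55, edgeR adjusted p = 0.0154). miR-181a-5p fell to 163 ± 81.8 CPM in resistant cells, against 866 ± 170 CPM in sensitive cells (log2 fold change -2.42, edgeR adjusted p = 0.0355). The most abundant member, miR-148a-3p, was at 19253 ± 11734 CPM in resistant and 13437 ± 1759 CPM in sensitive cells and did not pass (log2 fold change 0.52, edgeR adjusted p = 0.592). Without resistant replicate 3 it rose (log2 fold change 1.01, edgeR adjusted p = 0.00134), and 2 members were then higher and 1 lower, where 13.7% of all tested miRNAs were higher and 14.4% lower. The median of the list was then 0.07, beside 0.04 over all tested. The opposite moves of miR-196a-5p and miR-181a-5p, both far above the 3p arms in level, stand beside the lower miR-221-3p and miR-222-3p.

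The list of other miRNAs of the same chromosome band, Xp11, holds arms of hairpins within CLCN5 and HUWE1 and need not cover the band. Of 19 listed arms 17 were tested and 0 passed, a count near the 4.17% called over all miRNAs, with 11 negative log2 fold changes and a median of -0.26. miR-532-5p, the most abundant, was at 937 ± 228 CPM in resistant and 1121 ± 245 CPM in sensitive cells (log2 fold change -0.26, edgeR adjusted p = 0.676). Without resistant replicate 3, 2 rose and 2 fell, close to the 13.7% and 14.4% over all miRNAs of that fit, and the median was -0.15. miR-98-5p (log2 fold change 1.30, edgeR adjusted p = 0.00245) and let-7f-2-3p (0.93, edgeR adjusted p = 0.0414), both of HUWE1, rose. The arms of miR-660, in CLCN5, fell (-0.77 for miR-660-5p, edgeR adjusted p = 0.0222, and -1.22 for miR-660-3p, edgeR adjusted p = 0.0348).

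The erythroid miRNAs, which increase as red cells mature while miR-221 and miR-222 decline, gave 0 of 6 tested members past the threshold, near the 4.17% over all miRNAs, with a median log2 fold change of -0.21. miR-486-5p, the most abundant, was at 28676 ± 30042 CPM in resistant and 5679 ± 813 CPM in sensitive cells (SD, n = 3 each; log2 fold change 2.34, edgeR adjusted p = 0.130). Without resistant replicate 3, both arms of miR-486 rose, where 13.7% of all miRNAs did (log2 fold change 1.05 for miR-486-5p, edgeR adjusted p = 0.00218, and 0.85 for miR-486-3p, edgeR adjusted p = 0.0125). The median of the list was then 0.26, beside 0.04 over all tested. miR-451a, whose maturation is Dicer-independent, was at 141 ± 78.3 CPM in resistant and 272 ± 76.0 CPM in sensitive cells and passed in neither fit (edgeR adjusted p = 0.296 with all libraries and 0.186 without resistant replicate 3).

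**Figure D5:**
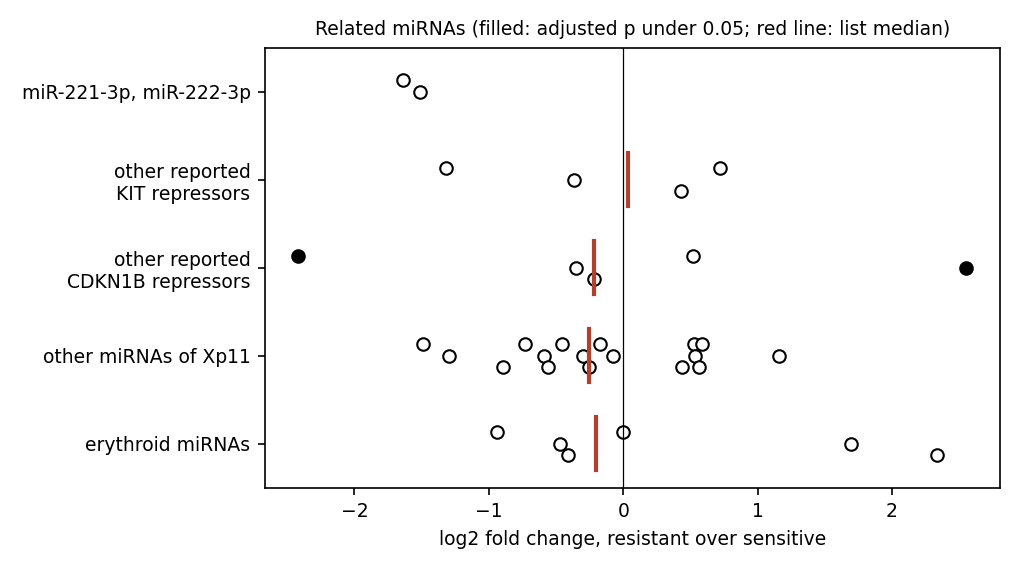
Log2 fold change with all 6 libraries, resistant over sensitive (horizontal axis), of the tested 3p arms and of the tested members of each list (rows); filled points have an adjusted p under 0.05 and the red line is the median of the list. Both 3p arms lie at -1.64 and -1.51, while the medians of the lists lie between -0.26 and 0.03, and the 2 filled points are miR-181a-5p on the left and miR-196a-5p on the right.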

How the data were processed

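The authors deposited read counts per mature miRNA in whole numbers, 1 column per library, not normalized as far as the values show. The build used was GRCh38, per the submitters' processing notes. No source used here names the aligner, the counting program or a filter. Per the labels' protocols, the library kit was NEBNext small RNA, so adapter ligation preferences enter the counts, and levels of different miRNAs are read counts, not molar amounts. Counts were tested on all miRNAs with edgeR 4.0.16 in R 4.3.3 (filterByExpr with minimum count 10 and minimum total 15, TMM factors, quasi-likelihood F test, Benjamini-Hochberg threshold 0.05). SE is the absolute log2 fold change over the square root of F. Arm ratios were tested with limma 3.58.1 over all name-paired hairpins. Since the 5p arms of miR-221 and miR-222 did not pass the filter, their ratios come from that fit without a filter, a departure from the planned design. DESeq2 1.42.0 was an alternative. The scripts were tested on simulated data. The members and lists were chosen with earlier results of these data known. Named were the members, the 3 miRNAs most like each tested arm, the 3 hairpins with the largest called arm difference, and from each list the most abundant and the called members. miR-193a-3p, miR-34a-5p and miR-451a were added after their values were seen. miR-92a-3p, miR-181a-2-3p and miR-625-5p are also named outside this rule. For the cell type markers only levels were planned, so their fold changes and tests go beyond the plan.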

Additional observations from a re-analysis of the deposited data

How the results depend on the processing

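The number of called miRNAs, 32 with all libraries, was 21 with RLE factors, 162 without a filter, 13 at a minimum mean of 10 CPM, 149 with DESeq2, 323 with limma-voom and library quality weights and 68 with the GC correction, which was chosen after seeing the data. Leaving out 1 library at a time gave 4 to 231. For miR-221-3p and miR-222-3p every alternative kept a negative log2 fold change. miR-221-3p passed with DESeq2 (-1.52, adjusted p = 0.0141) and with quality weights (-1.91, limma adjusted p = 3.50e-06), and its values over the fits without 1 library were -1.78 to -1.34. miR-222-3p passed with quality weights (-2.03, limma adjusted p = 1.67e-05) and with the GC correction (-1.73), and its values without 1 library were -1.80 to -0.96. The cause was not tested. Called arm ratios, 3 of 205, were 1 with a pseudocount of 5 and 6 with library quality weights.

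Replicate numbers are shared by the groups, but libraries with the same number did not all deviate together (r = -0.07, 0.27 and 0.14 for numbers 1 to 3), and resistant replicate 1 correlated best with sensitive replicate 2 (0.22). With the replicate number as a block, 23 miRNAs and 3 arm ratios were called. miR-221-3p had a log2 fold change of -1.62 (edgeR adjusted p = 0.153) and miR-222-3p one of -1.48 (edgeR adjusted p = 0.222). Each replicate number holds a library of each group, so the block cannot change an unweighted difference between group means. The arm ratio differences, fitted without a filter, therefore stayed at -0.05 for miR-221 and -0.93 for miR-222. Likewise, the ratio of the 3p arms still differed by 0.19 on the log2 scale and the summed share by -20.5 CPM of the library total. These unchanged differences are thus no check of how the results depend on the replicate number.

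Depth limits the 5p arms most, with 23 counts of miR-221-5p and 4 of miR-222-5p over all 6 libraries. For that reason quality weights and diffSpliceDGE gave no value for their arm ratios. Separately, no value of miR-222-3p exists at a minimum mean of 10 CPM, since its own mean level lies under that.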
